A study of Mus musculus with 24 samples.

Results

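Liver RNA of mice that lack 3 PAR bZip genes, Dbp, Tef and Hlf, was compared with that of wild-type mice in the 2 sampled hours that lead up to lights off. Knockout mice (Hlf-/-/Dbp-/-/Tef-/-) and wild-type mice (Hlf+/+/Dbp+/+/Tef+/+) were all 12 to 16 weeks old and fed ad libitum. All libraries whose labels give ZT08 or ZT12 were taken, where ZT counts hours from lights on, which made 8 of the 24 libraries of the series. Each genotype had 2 libraries at ZT08 and 2 at ZT12, here 4 knockout against 4 wild-type libraries. These hours were picked because wild-type Dbp and Tef counts are highest there, so that peak is not a result. In the labels, replicates 1 bear an I and replicates 2 a P, here set I and set P, with no word on what these stand for. All 24 also bear an M that the labels do not explain. No label names the sex of the mice, which exons were deleted, or whether replicates were taken from different mice. P-values therefore measure only the spread among these samples, which may be technical.

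DBP, TEF and HLF are closely related leucine zipper activators that bind the same DNA element, the D box, and in liver their abundance follows the circadian clock. NFIL3 binds the same element and represses. In mouse liver these factors are best known for driving genes that detoxify foreign compounds, among them P450 enzymes, their reductase Por and the receptor gene Nr1i3 (CAR), and for acting on lipid genes through ligands of PPAR-alpha.

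Totals ran from 16177175 to 17167102 counts in the 4 knockout libraries and from 16317859 to 17941643 in the 4 wild-type libraries. Replicates of a group correlated across genes at r = 0.988 and 0.987 in the knockout at ZT08 and ZT12, and at r = 0.981 and 0.976 in wild type (log2 CPM). The 2 wild-type set I libraries stood apart in how a gene's deviation followed its GC content, with r = 0.392 at ZT08 and 0.323 at ZT12, against −0.216 to 0.0284 in the other 6 libraries. Wild-type set I libraries of ZT04, ZT16 and ZT20, which enter the shared estimate of spread and the comparison with other times, had r of 0.622 to 0.68. Hepatocyte markers were abundant in all 8 libraries, with summed levels of 8 markers of 46467 to 65729 CPM in the knockout and 72239 to 95029 CPM in wild type. Without Alb, the only one of the 8 that was called, the sums overlapped, at 22298 to 27375 CPM in the knockout and 23071 to 28347 CPM in wild type. In whole liver, fewer cells of a type and less RNA per cell cannot be told apart.

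The deleted genes were all low in the knockout. Dbp (ENSMUSG00000059824, mm10 chromosome 7, 45705088 to 45710203) had 2 and 0 counts at ZT08 and 0 and 1 at ZT12 in the knockout, against 991 and 864 at ZT08 and 398 and 492 at ZT12 in wild type. The wild-type level was 943 times the knockout level (exact 95% interval 322 to 4575, for counting error only), since the knockout libraries held 3 counts in all. Tef (chromosome 15, 81802421 to 81826863) had 28.4 and 25.8 CPM at ZT08 and 30.05 and 22.98 CPM at ZT12 in the knockout, against 329.9 and 297 CPM at ZT08 and 279 and 300.5 CPM at ZT12 in wild type. Its 2 groups did not overlap, and a remainder of 404 to 513 counts per library was still counted in the knockout (log2 change −3.49, SE 0.20, edgeR adjusted p = 5.64e-08). Hlf (chromosome 11, 90336536 to 90390895) had 1.59 and 1.71 CPM at ZT08 and 3.34 and 2.62 CPM at ZT12 in the knockout, against 89.7 and 79.9 CPM at ZT08 and 91.8 and 95.6 CPM at ZT12 in wild type, again without overlap (log2 change −5.32, SE 0.22, edgeR adjusted p = 1.34e-09). The files hold counts per gene, so the exons behind the remaining Tef and Hlf counts cannot be told. Nfil3, the repressor of the same element, had 5.74 and 6.4 CPM at ZT08 and 8.96 and 10.2 CPM at ZT12 in the knockout, against 8.58 and 9.48 CPM at ZT08 and 16.3 and 18.9 CPM at ZT12 in wild type. Within each hour both knockout libraries were lower for Nfil3, but the difference did not pass (log2 change −0.73, edgeR adjusted p = 0.0559), and with only the 8 libraries of these hours it did.

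**Figure D1:**
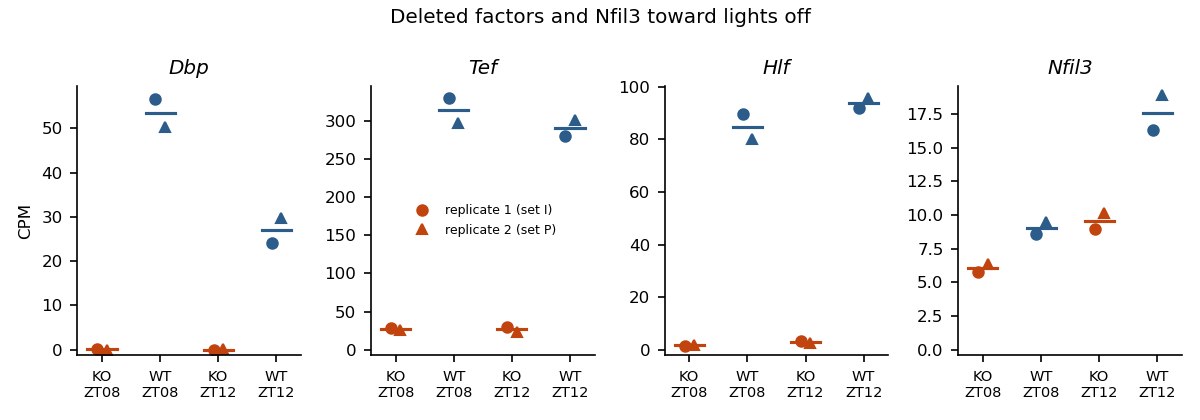
Levels of Dbp, Tef, Hlf and Nfil3 in CPM (linear axes from 0) in each of the 8 libraries, orange for knockout and blue for wild type, circles for replicate 1, triangles for replicate 2 and bars for the mean of 2. Knockout Dbp lies at 0 to 0.114 CPM, and Tef and Hlf keep a low remainder, while the knockout points of Nfil3 lie below the wild-type points within each hour.

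Across the genome, more genes fell than rose without the 3 factors. Of 15090 genes tested, 375 were lower in the knockout (2.49%) and 200 higher (1.33%) at an edgeR adjusted p under 0.05, which is 3.81% in either direction and is what "called" means below. Among them 226 fell (1.5%) and 143 rose (0.948%) by a log2 change of at least 1 in size, while the median over all genes tested was −0.02. Both knockout libraries lay below both wild-type libraries at each hour for 1771 genes (11.7%) and above for 1455 (9.64%). The counts depended on single libraries. Without wild-type ZT08 replicate 1 there were 119 rises and 181 falls, and without knockout ZT08 replicate 1, knockout ZT12 replicate 1 or wild-type ZT12 replicate 1 between 121 and 129 rises. Falls numbered 199 and 241 without knockout ZT08 replicate 1 or 2, 214 and 218 without knockout ZT12 replicate 1 or 2, and 220 without wild-type ZT12 replicate 1. Set P alone gave 119 rises and 168 falls. All 575 called genes kept their direction under every alternative in which they were measured.

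**Figure D2:**
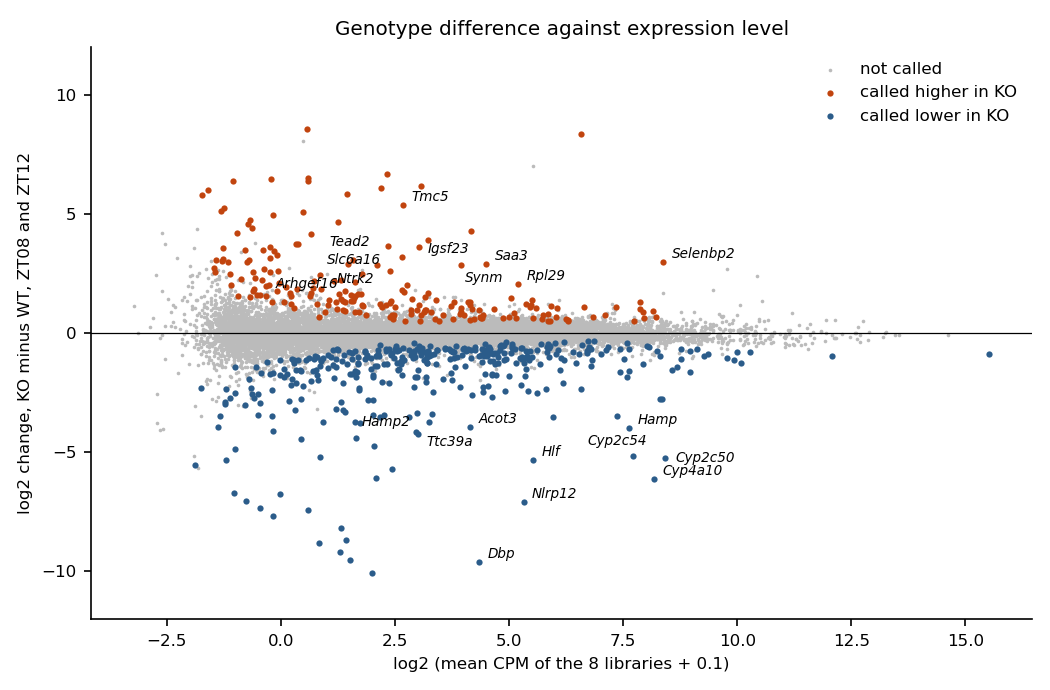
Log2 change of knockout against wild type over ZT08 and ZT12 (y axis) against the log2 mean CPM of the 8 libraries (x axis), 1 point per gene tested, orange for the 200 genes called higher in the knockout and blue for the 375 called lower. Named points are the 10 largest rises and falls by the rule for named genes, with Cyp2c50, Cyp2c54 and Cyp4a10 at high expression far below 0.

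The largest falls were in drug and fatty acid P450 genes, a NOD-like receptor gene and the iron hormone. Nlrp12 (chromosome 7, 3218784 to 3249740), of the NOD-like receptor family, had 0.455 and 0.80 CPM at ZT08 and 0.41 and 0.569 CPM at ZT12 in the knockout, against 69.1 and 46.2 CPM at ZT08 and 121 and 79.3 CPM at ZT12 in wild type. The groups were far apart at both hours (log2 change −7.08, SE 0.46, edgeR adjusted p = 1.73e-07). Cyp2c50 (chromosome 19, 40089688 to 40113950), a drug and fatty acid epoxidising P450 gene, averaged 18.1 ± 5.67 CPM in the knockout and 663 ± 88.2 CPM in wild type (SD, n = 4 each), a log2 change of −5.23 (edgeR adjusted p = 7.06e-09). Its neighbour Cyp2c54 had 4.78 and 8.4 CPM at ZT08 and 22.3 and 17.7 CPM at ZT12 in the knockout, against 424 and 327 CPM at ZT08 and 402 and 469 CPM at ZT12 in wild type. In both Cyp2c genes the knockout libraries of ZT12 were higher than those of ZT08, and in no library did the knockout come near wild type. Because the Cyp2c genes are similar in sequence, reads could have been split between them, which cannot be checked here.

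Some genes were much higher in wild type at ZT12 than at ZT08, and the knockout libraries of ZT12 stayed far below that level. Cyp4a10 (chromosome 4, 115518264 to 115533649), which hydroxylates fatty acids at their far end, had 1.82 and 2.51 CPM at ZT08 and 10.7 and 4.72 CPM at ZT12 in the knockout, against 66.4 and 87.1 CPM at ZT08 and 1561 and 571 CPM at ZT12 in wild type. Its 2 wild-type ZT12 libraries differed from each other more than the others did, yet the groups did not overlap (log2 change −6.13, SE 0.56, edgeR adjusted p = 8.4e-06). Acot3 (chromosome 12, 84052144 to 84060402), a peroxisomal acyl-CoA thioesterase gene, had 0.398 and 0.457 CPM at ZT08 and 1.64 and 0.967 CPM at ZT12 in the knockout, against 2.23 and 1.92 CPM at ZT08 and 97.2 and 35.5 CPM at ZT12 in wild type. The difference at ZT08 alone was not called (log2 change −2.26, edgeR adjusted p = 0.272), whereas at ZT12 it was (−5.66, edgeR adjusted p = 0.000389), and the change between the hours did not pass (edgeR adjusted p = 0.799).

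Hamp (chromosome 7, 30942368 to 30944032), which encodes the iron hormone hepcidin, had 72.1 and 23.3 CPM at ZT08 and 17.05 and 6.03 CPM at ZT12 in the knockout, against 342 and 392 CPM at ZT08 and 370.3 and 369 CPM at ZT12 in wild type. The 4 wild-type values lay close together, all above the knockout values, which were widely spread (log2 change −3.97, SE 0.46, edgeR adjusted p = 0.000124). Ttc39a averaged 0.88 ± 0.54 CPM in the knockout and 15.1 ± 2.0 CPM in wild type (SD, n = 4 each, log2 change −4.22). Hamp2, the other hepcidin gene of the mouse, also fell (log2 change −3.71).

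The largest rises were mostly in genes with low wild-type levels, and several lie on chromosome 7. Tmc5 (chromosome 7, 118597297 to 118675086), a transmembrane channel-like gene, had 5.17 and 12.7 CPM at ZT08 and 12.1 and 15.9 CPM at ZT12 in the knockout, against 2.92 and 1.05 CPM at ZT08 and 0 and 0.0606 CPM at ZT12 in wild type. All 4 knockout libraries were above all 4 wild-type libraries (log2 change 5.36, SE 0.63, edgeR adjusted p = 0.000169). Tead2 (chromosome 7, 45215753 to 45233644), which acts at the end of Hippo signalling, averaged 9.21 ± 2.52 CPM in the knockout and 0.722 ± 0.222 CPM in wild type (SD, n = 4 each, log2 change 3.63). Igsf23 averaged 14.9 ± 1.76 CPM in the knockout and 1.21 ± 0.295 CPM in wild type, Slc6a16 11.2 ± 5.22 CPM in the knockout and 1.18 ± 0.209 CPM in wild type and Synm, an intermediate filament gene, 26.9 ± 2.05 CPM in the knockout and 3.72 ± 0.498 CPM in wild type (SD, n = 4 each). These 5 genes are on chromosome 7, and of them Slc6a16 and Tead2 are less than 10 Mb from Dbp.

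Selenbp2, a selenium-binding protein gene that is higher in male than in female mouse liver (chromosome 3, 94693556 to 94704413), had the highest knockout level of these 10. It had 971 and 635 CPM at ZT08 and 491 and 283 CPM at ZT12 in the knockout, against 82.6 and 46.2 CPM at ZT08 and 69.1 and 87.1 CPM at ZT12 in wild type. Every knockout library was above every wild-type library, with a higher knockout level at ZT08 than at ZT12 (log2 change 2.97, SE 0.29, edgeR adjusted p = 1.64e-05). Ntrk2, a neurotrophin receptor gene, had 22.8 and 10.6 CPM at ZT08 and 1.93 and 2.16 CPM at ZT12 in the knockout, against 1.14 and 1.05 CPM at ZT08 and 0.969 and 0.667 CPM at ZT12 in wild type. Its rise was called at ZT08 (log2 change 3.92, edgeR adjusted p = 0.00588) and not at ZT12 (1.32, edgeR adjusted p = 0.486). The other genes of this set were Saa3 (2.90), Arhgef16 (2.16) and Rpl29 (2.06). Set P alone did not call Arhgef16 (log2 change 1.56).

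**Figure D3:**
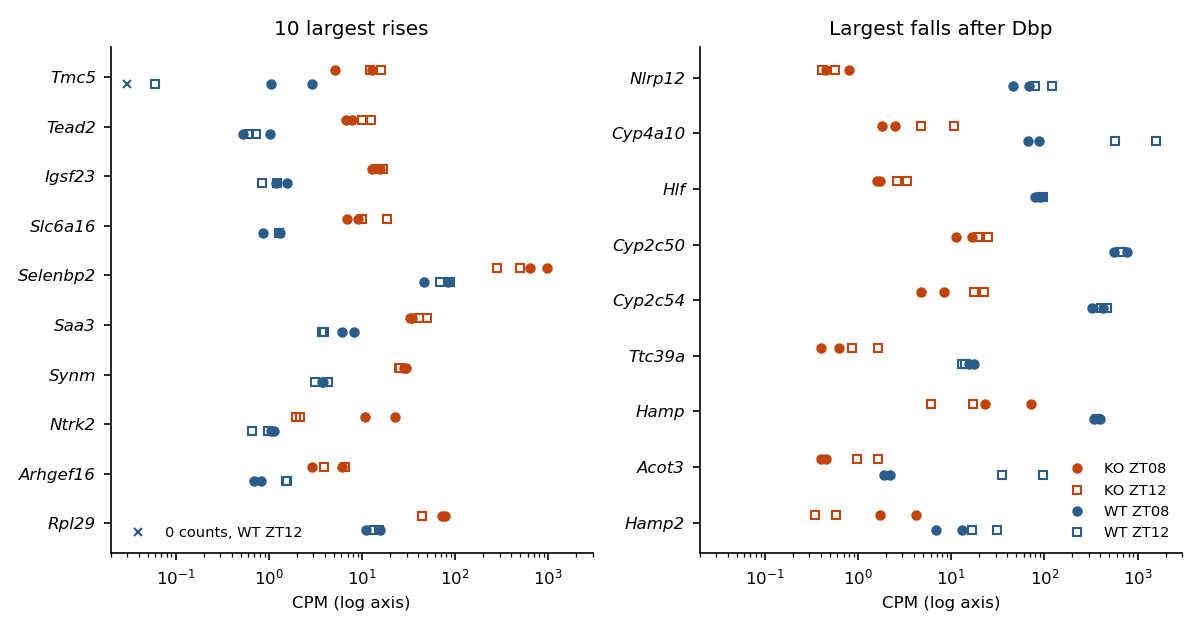
Level in CPM (log axis) of the 10 largest rises (left) and of the largest falls after Dbp (right) in each library, orange for knockout and blue for wild type, filled circles for ZT08 and open squares for ZT12, with a cross for the wild-type ZT12 library with 0 Tmc5 counts. The rule for these genes required that knockout and wild-type points do not overlap within either hour, and the wild-type points of Cyp4a10 and Acot3 lie apart between ZT08 and ZT12.

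Genes known as targets of these factors in liver fell more often than not. Of 25 measured, 17 fell, none rose and 8 were not called, with a median log2 change of −1.26, beside −0.02 over all genes and 2.49% of all genes called lower. This list was drawn up from what is known of this knockout, so its direction is not independent evidence. Set P alone called 10 falls and 1 rise. Members with large falls were Cyp2c37 (−3.51) and Cyp2b10 (−3.77), a target gene of CAR that averaged 0.433 against 5.98 CPM in knockout and wild type. Cyp2a5 (0.25), Cyp2a4 (−0.29), Cyp7a1 (−0.29) and Upp2 (−0.14) were not called at these hours.

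Among enzymes that first modify foreign compounds, most genes were not called, while 2.49% of all genes tested were called lower. Of 41 measured P450 genes of families 1 to 3, the 4 falls were Cyp2c50, Cyp2c54, Cyp2c37 and Cyp2b10, and the list's median was −0.04. Cyp3a11, an abundant drug-metabolising P450 gene, averaged 3685 ± 656 CPM in the knockout and 3586 ± 499 CPM in wild type (SD, n = 4 each) and was not called, nor was Cyp2e1 with 11617 ± 332 CPM in the knockout and 12344 ± 1577 CPM in wild type. Of 15 carboxylesterase genes 3 fell. Ces1g, whose product cleaves esters of lipids and drugs, had 37.1 and 19.3 CPM at ZT08 and 9.37 and 12.5 CPM at ZT12 in the knockout, against 154 and 71.9 CPM at ZT08 and 65.7 and 79.4 CPM at ZT12 in wild type. The knockout libraries were lower at both hours (log2 change −2.37, SE 0.30, edgeR adjusted p = 0.000244), though the call was not made in set P alone (log2 change −2.29, edgeR adjusted p = 0.176). Ces1d, a triglyceride hydrolase gene, averaged 237 ± 91.9 CPM in the knockout and 761 ± 369 CPM in wild type (SD, n = 4 each, log2 change −1.63). Ces1e fell (log2 change −0.66), a call lost without any of 5 of the 8 libraries (edgeR adjusted p 0.0657 to 0.171).

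Other first-step enzymes moved both ways, while 2.49% of all genes tested were called lower and 1.33% higher. Aldh1a1, which makes retinoic acid, averaged 637 ± 111 CPM in the knockout and 1522 ± 185 CPM in wild type (SD, n = 4 each, log2 change −1.26, SE 0.14, edgeR adjusted p = 7.27e-05). Of 32 genes of retinoid, aldehyde and alcohol oxidation, 2 fell, Aldh1a1 among them, and the aldehyde oxidase gene Aox1 (1.09) and Adh4 (0.69) rose, with a median of −0.10. Aox1 had 244 and 204 CPM at ZT08 and 237 and 195 CPM at ZT12 in the knockout, against 146 and 111 CPM at ZT08 and 71.7 and 93.9 CPM at ZT12 in wild type, so that all knockout libraries were above all wild-type libraries. Adh4 was no longer called when any of 7 libraries was left out (edgeR adjusted p 0.0673 to 0.136). Among flavin monooxygenase genes, Fmo4 (−0.97) and Fmo2 (−1.70) fell. The Fmo4 call was lost without wild-type ZT08 replicate 1 (edgeR adjusted p = 0.0597) and that of Fmo2 without any of 6 libraries (edgeR adjusted p up to 0.137).

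Of the genes for receptors and their partners 3 fell, while the lists for electron supply and heme had 1 call each. The share of all genes tested called lower was 2.49%. Nr1i3, which encodes the drug-sensing receptor CAR, had 24.9 and 24.3 CPM at ZT08 and 36.1 and 34.1 CPM at ZT12 in the knockout, against 61.4 and 42.1 CPM at ZT08 and 72.7 and 64.5 CPM at ZT12 in wild type. All knockout values were below all wild-type values (log2 change −1.02, SE 0.20, edgeR adjusted p = 0.00881), and the call was lost without wild-type ZT08 replicate 1 (edgeR adjusted p = 0.0566). Of 10 genes for drug-sensing receptors and their partners, Arnt (−0.45), which is not itself a receptor gene, and Ppara (−0.42) fell as well. Each of these calls was lost without any of 7 libraries (edgeR adjusted p 0.0642 to 0.197 for Ppara, 0.0786 to 0.139 for Arnt). Por, the reductase that hands electrons to P450 enzymes, had 281 and 372 CPM at ZT08 and 612 and 517 CPM at ZT12 in the knockout, against 516 and 479 CPM at ZT08 and 1490.3 and 951 CPM at ZT12 in wild type. Por was the 1 call among 8 P450 redox partner genes, whose median was −0.03. Within each hour the groups did not overlap, but the knockout at ZT12 was above wild type at ZT08, and the call (log2 change −0.86, SE 0.22, edgeR adjusted p = 0.0381) was lost without any of 6 libraries (edgeR adjusted p 0.0619 to 0.161). In heme synthesis and breakdown 1 of 17 genes fell, Cpox (−0.55), with a list median of 0.01, and it was lost likewise (edgeR adjusted p 0.0657 to 0.228). Alas1, the rate-limiting enzyme of heme synthesis, averaged 557 ± 83.1 CPM in the knockout and 1074 ± 547 CPM in wild type (SD, n = 4 each) and was not called (edgeR adjusted p = 0.27).

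The 2 lists of conjugating enzymes and the list of transporters had 2 calls each, while 3.81% of all genes tested were called. Of 22 glutathione transferase genes, Gsta3 fell (747 ± 106 CPM in the knockout and 1294 ± 157 CPM in wild type, SD, n = 4 each, log2 change −0.80) and so did Gstt1 (−1.08, lost without any of 6 libraries, edgeR adjusted p up to 0.141). Of 28 glucuronosyl and sulfo transferase genes and their sugar supply, Ugdh, which makes UDP-glucuronic acid, rose (369 ± 49.6 CPM in the knockout and 196 ± 47.8 CPM in wild type, SD, n = 4 each, log2 change 0.92). Sult1a1 fell (−0.60), and its call was lost without any of 7 libraries (edgeR adjusted p up to 0.159). Of 25 drug and anion transporters, Abcc6 rose and Slc22a7 fell. Abcc6, a transporter gene within 10 Mb of Dbp, had 381 and 319 CPM at ZT08 and 346 and 286 CPM at ZT12 in the knockout, against 158 and 135 CPM at ZT08 and 121 and 130.1 CPM at ZT12 in wild type. The knockout libraries were all above the wild-type libraries (log2 change 1.29, SE 0.15, edgeR adjusted p = 9.17e-05). Slc22a7, an organic anion uptake transporter, averaged 26.00 ± 3.31 CPM in the knockout and 118 ± 76.8 CPM in wild type (SD, n = 4 each, log2 change −2.08, lost without any of 6 libraries, edgeR adjusted p up to 0.136).

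**Figure D4:**
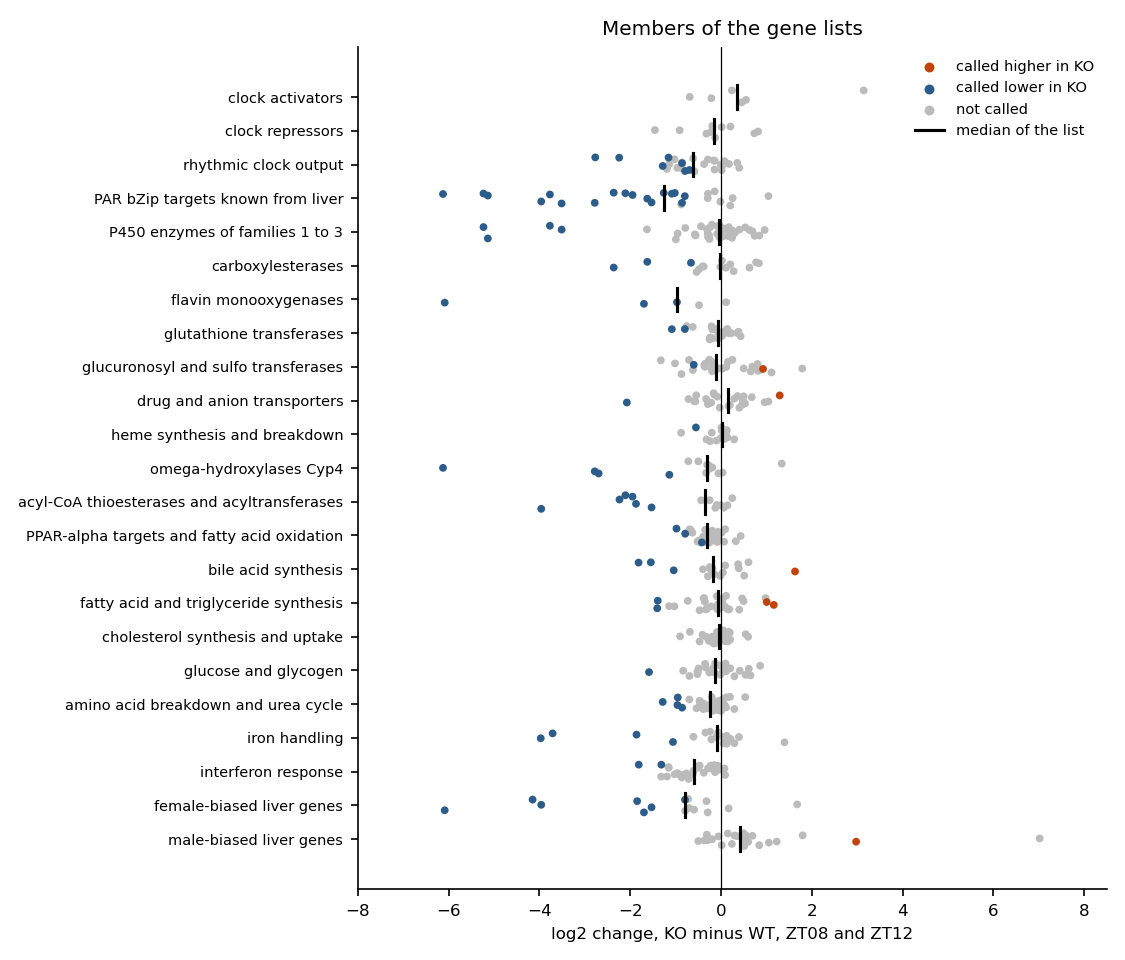
Log2 change of knockout against wild type over ZT08 and ZT12 (x axis) for the measured members of 23 gene lists (rows), orange for called higher, blue for called lower, grey for not called, with a black bar at each list's median. In the list of known PAR bZip targets 17 of 25 points are blue, while the P450 genes of families 1 to 3 hold 4 blue points and a median of −0.04.

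Promoter sequences were searched for the D-box core that PAR bZip factors are known to prefer. The 8-base forms TTATGTAA and TTACGTAA were looked for on both strands (TTACATAA is the first on the other strand) from 250 bases before to 50 after each RefSeq gene start (GRCm38.p6), which was given for 10899 of 15089 gene symbols tested. A match stood in the promoters of 13 of 262 genes called lower (4.96%), 0 of 132 called higher and 104 of all 10899 (0.954%). Allowing any base in the middle (TTANGTAA), the shares were 6.49%, 0.758% and 2.01%. These shares are descriptions of this window only, and a match is not a measured binding site. The named genes called here that carry a match before their start are shown: the albumin gene and 2 carboxylesterase genes, all of which fell. The 250 bases before the start are printed 5′ to 3′ on the gene's strand, with the match in capitals. DBP was named for the D element of the albumin promoter, which has other letters and is not what the capitals mark.

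Alb, chr5:90460620-90460869, plus strand: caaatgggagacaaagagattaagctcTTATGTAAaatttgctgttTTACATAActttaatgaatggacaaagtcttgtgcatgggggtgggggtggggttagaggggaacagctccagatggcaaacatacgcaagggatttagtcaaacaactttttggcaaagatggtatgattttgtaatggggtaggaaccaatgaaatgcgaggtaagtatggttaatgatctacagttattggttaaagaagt
Ces1g, chr8:93337210-93337459, minus strand: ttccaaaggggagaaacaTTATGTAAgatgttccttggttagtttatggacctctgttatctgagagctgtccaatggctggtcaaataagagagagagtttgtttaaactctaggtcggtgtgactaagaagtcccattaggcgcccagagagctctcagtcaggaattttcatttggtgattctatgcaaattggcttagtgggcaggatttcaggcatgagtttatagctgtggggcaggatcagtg
Ces1e, chr8:93229620-93229869, minus strand: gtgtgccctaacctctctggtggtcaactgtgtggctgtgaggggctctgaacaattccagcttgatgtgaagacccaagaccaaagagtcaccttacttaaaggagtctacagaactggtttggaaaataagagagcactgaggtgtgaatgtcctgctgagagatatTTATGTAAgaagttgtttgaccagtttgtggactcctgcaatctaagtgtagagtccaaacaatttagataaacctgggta

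Counted from the start site, the first base of the match stood at −223 and −204 in Alb, at −232 in Ces1g and at −81 in Ces1e. No GENCODE transcript of Ces1g was found to begin within 50 bases before this RefSeq start or shortly after it. Alb, which encodes the main plasma protein made by the liver, had 24169 and 31657 CPM at ZT08 and 41976 and 35920.0 CPM at ZT12 in the knockout, against 70754 and 46975 CPM at ZT08 and 59664 and 64867 CPM at ZT12 in wild type. All 4 knockout libraries were below the 4 wild-type libraries (log2 change −0.88, SE 0.18, edgeR adjusted p = 0.0131). The call was lost without knockout ZT08 replicate 1, knockout ZT12 replicate 2 or wild-type ZT08 replicate 1 (edgeR adjusted p 0.0761 to 0.0831). In the windows given for Cyp2c50, Cyp2b10, Nr1i3, Por and Aldh1a1 these letters were not found.

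Genes of fatty acid handling fell in some members, most of which were higher in wild type at ZT12 than at ZT08. Of 14 measured Cyp4 genes 4 fell, and of 14 acyl-CoA thioesterase and acyltransferase genes 6 fell, with medians of −0.32 and −0.35. All genes tested had a median of −0.02, with 2.49% called lower. Acot1 (−1.95), Acot2 (−2.11), Acot4 (−1.53) and Acot6 (−1.87) lie in a cluster with Acot3 on chromosome 12, and Acnat2 (−2.24), an acyl-CoA amino acid transferase gene, fell with them. Set P alone did not call Acot2 (log2 change −1.83) or Acnat2 (−1.95). Acot4 had 19.2 and 24.8 CPM at ZT08 and 49.7 and 39.02 CPM at ZT12 in the knockout, against 53.6 and 49.2 CPM at ZT08 and 199 and 118 CPM at ZT12 in wild type. Knockout libraries were lower within each hour, and the ZT12 values of the knockout overlapped the ZT08 values of wild type. The Acot6 call was lost without any of the 4 set I libraries (edgeR adjusted p 0.0514 to 0.0614). Cyp4a31 averaged 4.96 ± 4.22 CPM in the knockout and 43.9 ± 53.3 CPM in wild type (SD, n = 4 each, log2 change −2.70). Cyp4a14 (−2.78) and Cyp4a32 (−1.14) lost their calls without any of 6 and 5 libraries (edgeR adjusted p up to 0.197 and 0.157).

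Few genes of the wider PPAR-alpha program were called. Of 40 genes of fatty acid oxidation and PPAR-alpha targets, 35 had a negative log2 change. The median was −0.31, beside −0.02 over all genes tested. Of the 40, 3 fell, namely Acsl1, Ehhadh and Ppara itself, beside 2.49% of all genes called lower. In set P alone the median was −0.16. Acsl1, which activates long-chain fatty acids, averaged 898 ± 50.7 CPM in the knockout and 1572 ± 286 CPM in wild type (SD, n = 4 each, log2 change −0.79, SE 0.14, edgeR adjusted p = 0.00379). Ehhadh, a peroxisomal oxidation enzyme, had 189.9 and 222 CPM at ZT08 and 217 and 197 CPM at ZT12 in the knockout, against 359 and 245 CPM at ZT08 and 695 and 407 CPM at ZT12 in wild type. All knockout libraries were below all wild-type libraries (log2 change −0.98), and set P alone did not give the call (edgeR adjusted p = 0.178). Cpt1a, the entry of fatty acids into mitochondria, averaged 620.0 ± 34.2 CPM in the knockout and 975 ± 307 CPM in wild type (SD, n = 4 each) and was not called (edgeR adjusted p = 0.0536).

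In lipid synthesis, 2 genes rose and 2 fell of 29, beside 1.33% of all genes called higher and 2.49% lower. Srebf1, the transcription factor of fatty acid synthesis, had 328 and 317 CPM at ZT08 and 272 and 324 CPM at ZT12 in the knockout, against 167 and 199 CPM at ZT08 and 91.8 and 169 CPM at ZT12 in wild type. All knockout libraries were above all wild-type libraries (log2 change 1.0, SE 0.24, edgeR adjusted p = 0.0296), but leaving out any of 7 libraries ended the call (edgeR adjusted p 0.0594 to 0.15). Scd2, a fatty acid desaturase, rose (1.16), while Elovl5, which lengthens polyunsaturated fatty acids, averaged 225 ± 52.4 CPM in the knockout and 596 ± 149 CPM in wild type (SD, n = 4 each, log2 change −1.41, SE 0.22, edgeR adjusted p = 0.00142). Acacb (−1.40) fell, and lost its call without any of 6 libraries (edgeR adjusted p up to 0.149). Of 26 cholesterol synthesis and uptake genes edgeR called 0 (0 higher and 4 lower at an unadjusted p under 0.05, 0 by DESeq2), with a median of −0.05 (0.25 in set P).

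Of 20 bile acid genes measured, Cyp8b1, Cyp39a1 and Slc27a5 fell and Cyp46a1 rose, with a median of −0.17. Among all genes tested, 2.49% were called lower and 1.33% higher, with a median of −0.02. Cyp8b1, the 12-alpha-hydroxylase that sets the share of cholic acid, had 255 and 263 CPM at ZT08 and 105 and 182 CPM at ZT12 in the knockout, against 792 and 372 CPM at ZT08 and 624 and 467 CPM at ZT12 in wild type. The groups did not overlap (log2 change −1.55, SE 0.28, edgeR adjusted p = 0.00493), and in set P alone the call was not made (log2 change −0.94, edgeR adjusted p = 0.165). Slc27a5, which activates bile acids for conjugation, averaged 568 ± 18.2 CPM in the knockout and 1174 ± 222 CPM in wild type (SD, n = 4 each, log2 change −1.04, lost without wild-type ZT08 replicate 1, edgeR adjusted p = 0.0862). Cyp39a1 (−1.82) was lost without any of 5 libraries (edgeR adjusted p 0.0653 to 0.0808). Cyp46a1 rose at a low level (3.51 ± 0.881 CPM in the knockout and 1.13 ± 0.283 CPM in wild type, SD, n = 4 each). In set P alone its call was not made (log2 change 1.33). Cyp7a1, the rate-limiting enzyme, averaged 511 ± 181 CPM in the knockout and 611 ± 78.9 CPM in wild type (edgeR adjusted p = 0.866).

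Glucose and amino acid enzymes fell in single genes, while 2.49% of all genes tested were called lower. Ppp1r3b, which targets a phosphatase to glycogen, was the 1 call among 27 glucose and glycogen genes and had 45.6 and 60.1 CPM at ZT08 and 105 and 211 CPM at ZT12 in the knockout, against 195 and 201 CPM at ZT08 and 377 and 385 CPM at ZT12 in wild type. Knockout ZT12 replicate 2 exceeded the wild-type libraries of ZT08, but within each hour the groups did not overlap (log2 change −1.59, SE 0.24, edgeR adjusted p = 0.00132). Of 39 genes of amino acid breakdown and the urea cycle 4 fell, with a median of −0.24. Oat, ornithine aminotransferase, had 445 and 452 CPM at ZT08 and 401 and 383 CPM at ZT12 in the knockout, against 963 and 888 CPM at ZT08 and 559 and 869 CPM at ZT12 in wild type (log2 change −0.95, SE 0.15, edgeR adjusted p = 0.00142). Got1, the cytosolic aspartate aminotransferase, averaged 142 ± 22.96 CPM in the knockout and 349 ± 104 CPM in wild type (SD, n = 4 each, log2 change −1.29). In set P alone Got1 was not called (log2 change −0.93). Bckdhb (−0.86) and Mat1a (−0.96) each lost the call without any of 4 libraries (edgeR adjusted p up to 0.0884 and 0.0816). Of 3 measured vitamin B6 enzyme genes Aox1 rose and Pdxk (−1.06), pyridoxal kinase, fell, and the Pdxk call was lost without any of 6 libraries (edgeR adjusted p up to 0.208).

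Iron genes and secreted proteins were examined next, while 2.49% of all genes tested were called lower and 1.33% higher. Of 18 iron genes 4 fell, namely Hamp, Hamp2, Ftl1 and Id1 (−1.06, lost without any of 6 libraries, edgeR adjusted p up to 0.22). Ftl1, the ferritin light chain gene, had 84.1 and 79.2 CPM at ZT08 and 91.5 and 78.2 CPM at ZT12 in the knockout, against 329 and 278 CPM at ZT08 and 329 and 276 CPM at ZT12 in wild type (log2 change −1.86, SE 0.22, edgeR adjusted p = 0.000124). The processed copy Ftl2-ps, named after its values were seen, had 192 and 178 CPM at ZT08 and 206 and 178 CPM at ZT12 in the knockout, against 0.629 and 0.116 CPM at ZT08 and 1.03 and 0.667 CPM at ZT12 in wild type. Ftl1 and Ftl2-ps are near-identical in sequence, so reads could have been assigned to either in a way that differs between the genotypes, and the fall of Ftl1 is uncertain. Of 29 acute phase genes only Saa3, an amyloid A gene within 10 Mb of Dbp, was called, and it had 34.7 and 32.9 CPM at ZT08 and 49.8 and 40.5 CPM at ZT12 in the knockout, against 6.07 and 8.14 CPM at ZT08 and 3.88 and 3.76 CPM at ZT12 in wild type. Saa1 averaged 2080.1 ± 518 CPM in the knockout and 662 ± 1038 CPM in wild type (SD, n = 4 each) with 2219 CPM in wild-type ZT08 replicate 2 and was not called (edgeR adjusted p = 0.0876).

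Interferon genes mostly had negative log2 changes. Of 33 measured, 31 had a negative log2 change and the median was −0.60, beside a median of −0.02 over all genes tested. Over both hours edgeR called Usp18 and Mx1 alone, beside 2.49% of all genes called lower. At ZT12 by itself 7 members fell, beside 1.15% of all genes. Over both hours DESeq2 called 8 members lower, of 451 genes that it called lower in all. Usp18, an interferon-induced protease gene, had 13.3 and 19.3 CPM at ZT08 and 10.8 and 9.84 CPM at ZT12 in the knockout, against 38.1 and 19.6 CPM at ZT08 and 105 and 38.4 CPM at ZT12 in wild type, with wild-type ZT12 replicate 1 far above the others (log2 change −1.81, SE 0.35, edgeR adjusted p = 0.00716). Isg15 had 11.5 and 17.5 CPM at ZT08 and 10.2 and 8.7 CPM at ZT12 in the knockout, against 18.2 and 11.2 CPM at ZT08 and 68.5 and 24.1 CPM at ZT12 in wild type, with the same library highest, and was not called. In set P alone the list's median was 0.01, and leaving out the 6 set I libraries of wild type gave a median of −0.18. For Usp18 the log2 change was −0.996 in set P alone and −1.09 without the 6 set I libraries of wild type. The Usp18 call was lost with only the 8 libraries of these hours (edgeR adjusted p = 0.0703). It was also lost with a replicate block within time (edgeR adjusted p = 0.0613). The Mx1 call (−1.32) was lost without any of 6 libraries (edgeR adjusted p 0.119 to 0.277).

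Sex-biased liver genes were listed because no label names the sex, with the M in the labels unexplained. Of 15 measured female-biased genes 7 fell, including Cux2, Slc22a26, Fmo2, Acot3 and Acot4, with a median of −0.79. Among all genes tested, 2.49% were called lower and 1.33% higher, with a median of −0.02. Of 24 male-biased genes Selenbp2 rose, with a median of 0.42 (0.14 in set P, where 3 rose and 1 fell). Cux2, a female-enriched repressor gene of mouse liver, had 0.625 and 0.686 CPM at ZT08 and 2.64 and 1.48 CPM at ZT12 in the knockout, against 0.801 and 0.465 CPM at ZT08 and 43.1 and 12.2 CPM at ZT12 in wild type. It was high in the 2 wild-type ZT12 libraries alone, and its call was lost without any of 5 libraries (edgeR adjusted p up to 0.158). Slc22a26, an anion transporter gene, followed with 0.0569 and 0.571 CPM at ZT08 and 0.469 and 0.455 CPM at ZT12 in the knockout, against 1.2 and 2.15 CPM at ZT08 and 43.7 and 12.9 CPM at ZT12 in wild type, and its call (−4.15) was lost without knockout ZT08 replicate 1 (edgeR adjusted p = 0.0532). In the growth hormone and IGF axis 2 of 17 genes fell, Cux2 and Igfbp2, an IGF carrier gene that averaged 280.3 ± 38.01 CPM in the knockout and 592 ± 125 CPM in wild type (SD, n = 4 each, log2 change −1.07, SE 0.19, edgeR adjusted p = 0.00483). The Igfbp2 call was lost with a replicate block within time (edgeR adjusted p = 0.0704). Moxd1 averaged 88.6 ± 84.4 CPM in the knockout and 3.62 ± 7.17 CPM in wild type, with 0.41 to 172 CPM among knockout libraries, and was not called (edgeR adjusted p = 0.159).

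No core clock gene passed the test at these hours. EdgeR called 0 of 6 clock activators (1 higher and 1 lower at an unadjusted p under 0.05, 0 by DESeq2, median log2 change 0.35). It called 0 of 10 clock repressors (1 higher and 2 lower unadjusted, 2 lower by DESeq2, median −0.16). Over all genes tested, 5.43% were higher and 9.63% lower at that unadjusted threshold. Per3, a period gene, had 27.97 and 24.5 CPM at ZT08 and 26.2 and 21.4 CPM at ZT12 in the knockout, against 65.00 and 64.8 CPM at ZT08 and 75.8 and 69.2 CPM at ZT12 in wild type. Every knockout value was below every wild-type value, yet the difference did not pass (log2 change −1.46, SE 0.41, edgeR adjusted p = 0.0623), and 10 alternatives called it. Ciart, a clock repressor gene, averaged 12.5 ± 2.16 CPM in the knockout and 23.3 ± 4.84 CPM in wild type (SD, n = 4 each, edgeR adjusted p = 0.0575). Arntl, the activator BMAL1, averaged 1.55 ± 0.558 CPM in the knockout and 2.45 ± 0.534 CPM in wild type (edgeR adjusted p = 0.097), and Cry2 48.01 ± 3.23 CPM in the knockout and 47.7 ± 5.15 CPM in wild type. Nr1d1, which encodes REV-ERB-alpha, had 88.3 and 75.8 CPM at ZT08 and 49.6 and 29.9 CPM at ZT12 in the knockout, against 84.1 and 58.7 CPM at ZT08 and 11.5 and 21.6 CPM at ZT12 in wild type, and was not called (edgeR adjusted p = 0.389). With only the 8 libraries of these hours 2 of the 10 repressors fell. Of 11 clock modifiers Csnk1e, a kinase gene that acts on period proteins, rose (0.51, lost without any of 5 libraries, edgeR adjusted p up to 0.0961). The share of all genes tested called higher was 1.33%.

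Rhythmic output genes of the clock fell in 7 of 29 cases, with none higher and a median of −0.62. All genes tested had a median of −0.02, with 2.49% called lower. Mreg, a melanosome transport gene, had 18.3 and 16.5 CPM at ZT08 and 12.9 and 14.3 CPM at ZT12 in the knockout, against 33.3 and 25.2 CPM at ZT08 and 40.2 and 40.3 CPM at ZT12 in wild type. All knockout libraries were below all wild-type libraries (log2 change −1.16, SE 0.14, edgeR adjusted p = 0.000149). Usp2, a deubiquitinase gene of the clock, averaged 30.2 ± 10.5 CPM in the knockout and 71.5 ± 21.1 CPM in wild type (SD, n = 4 each, log2 change −1.29, SE 0.25, edgeR adjusted p = 0.00758). The Usp2 call was lost with a replicate block within time (edgeR adjusted p = 0.0771), and in set P alone Usp2 was not called (log2 change −1.04). Rgs16, a regulator of G-protein signalling, averaged 7.43 ± 2.36 CPM in the knockout and 35.7 ± 13.4 CPM in wild type (edgeR adjusted p = 0.0466) and Klf13 61.6 ± 10.1 CPM in the knockout and 107 ± 17.02 CPM in wild type (edgeR adjusted p = 0.0491). Without any of the 8 libraries for Rgs16, or any of 7 for Klf13, these calls were lost (edgeR adjusted p 0.0519 to 0.212 and 0.0534 to 0.197). Wee1, a cell cycle kinase gene, fell (log2 change −0.70), and its call was lost without any of the 8 libraries (edgeR adjusted p 0.078 to 0.164). Lonrf3 (−2.77) was lost without any of 5 (edgeR adjusted p up to 0.0964). In set P alone 6 fell and 1 rose.

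Stress and growth genes were taken list by list, while 3.81% of all genes tested were called in either direction. Among 25 genes induced by unfolded proteins or amino acid shortage edgeR called 0 (2 lower at an unadjusted p under 0.05, 0 by DESeq2), with a median of 0.04. Of 22 heat shock and cold-inducible genes Hspb1, a small chaperone, rose (3.53 ± 0.69 CPM in the knockout and 1.29 ± 0.157 CPM in wild type, SD, n = 4 each), a call lost without any of 4 libraries (edgeR adjusted p 0.0527 to 0.0725). Jun, the 1 call among 20 immediate early genes, had 6.71 and 7.77 CPM at ZT08 and 6.5 and 8.47 CPM at ZT12 in the knockout, against 7.1 and 7.21 CPM at ZT08 and 46.5 and 19.1 CPM at ZT12 in wild type. The groups overlapped at ZT08 and only the wild-type ZT12 libraries were high, and the call was lost without any of 6 libraries (edgeR adjusted p 0.0579 to 0.121). Of 24 cell cycle genes Wee1 and Aurkb (−1.75, lost without any of 6 libraries, edgeR adjusted p up to 0.198) fell. Of 21 NRF2 targets Ugdh alone was called.

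Calls among genes of protein complexes that all cells use are set beside 3.81% over all genes tested (1.33% higher and 2.49% lower). Of 83 cytosolic ribosomal protein genes Rpl29 rose and Rpl3 fell, with a median of −0.03. Rpl29 had 71.6 and 77.3 CPM at ZT08 and 44.1 and 44.2 CPM at ZT12 in the knockout, against 15.4 and 10.99 CPM at ZT08 and 15.3 and 13.5 CPM at ZT12 in wild type (log2 change 2.06, SE 0.27, edgeR adjusted p = 0.000276). Rpl3 averaged 152 ± 8.22 CPM in the knockout and 240.4 ± 18.5 CPM in wild type (SD, n = 4 each, log2 change −0.67, lost without wild-type ZT08 replicate 1, edgeR adjusted p = 0.0759), and its processed copy Rpl3-ps1, named after its values were seen, 34.1 ± 1.5 CPM in the knockout and 1.77 ± 0.146 CPM in wild type. Reads of ribosomal protein genes and of their copies can be split by the counting, so both changes are uncertain. Of 80 respiratory chain and ATP synthase genes Cox6b2 rose (4.36 ± 0.511 CPM in the knockout and 0.194 ± 0.152 CPM in wild type, SD, n = 4 each) and so did Ndufs5 (1.01, lost without any of 5 libraries, edgeR adjusted p up to 0.0986), with a median of −0.18. EdgeR called 0 of 77 mitochondrial ribosomal genes (9 lower at an unadjusted p under 0.05, 2 lower by DESeq2), 0 of 38 proteasome genes (1 higher and 3 lower unadjusted, 0 by DESeq2) and 0 of 10 mitochondrially encoded genes (0 unadjusted, 0 by DESeq2).

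Few markers of other cell types were called, apart from those of blood, while 3.81% of all genes tested were called. Of 7 measured blood genes 3 rose, among them Hba-a1 and Hbb-bs. The summed level of the 7 was 260.0 to 349 CPM in the knockout and 161 to 223 CPM in wild type, and the haemoglobin gene Hbb-bs averaged 137 ± 26.3 CPM in the knockout and 63.3 ± 8.01 CPM in wild type (SD, n = 4 each). The calls of Hba-a1 and Hbb-bs were lost without any of the 8 libraries (edgeR adjusted p 0.0569 to 0.189 for Hbb-bs). Blood content as a part in any gene's change was not tested. EdgeR called 0 of 12 Kupffer cell and macrophage, 12 endothelial, 12 stellate and fibroblast, 6 cholangiocyte and 8 B cell markers, 1 of 8 T and NK cell markers (Nkg7, lower) and 1 of 6 neutrophil and monocyte markers (Ly6c2, lower). Of the lists without a call, the Kupffer cell list had 1 higher and 1 lower and the cholangiocyte list 1 higher at an unadjusted p under 0.05, and DESeq2 called 1 lower in the Kupffer cell list. The calls of Nkg7 and Ly6c2 were lost without any of 3 and 6 libraries (edgeR adjusted p up to 0.0943 and 0.196). Summed Kupffer cell markers were 683 to 898 CPM in the knockout and 753 to 1060 CPM in wild type. Pancreatic acinar, fat and muscle markers passed the filter for 2 of 10, 3 of 7 and 1 of 7 genes. In the pericentral list Slc1a2 rose (0.64, lost without any of 7 libraries, edgeR adjusted p up to 0.242) and Oat fell.

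Hour by hour, 91 genes fell (0.603%) and 50 rose (0.331%) at ZT08, 0.934% in either direction. At ZT12 174 fell (1.15%) and 105 rose (0.696%), 1.85% in either direction. At both hours 56 genes fell and 33 rose, and 0 were called in opposite directions. Of the ZT08 falls 61.5% were also ZT12 falls, and 32.2% of the ZT12 falls were also ZT08 falls, with 66.0% and 31.4% for rises. These counts and shares rest on few libraries. Without 1 of the 4 ZT08 libraries, 22 to 60 genes fell and 15 to 35 rose at ZT08, with the fewest falls without knockout replicate 1 and the fewest rises without wild-type replicate 1. At ZT12, 51 genes fell without knockout replicate 1, 56 without knockout replicate 2, 58 without wild-type replicate 1 and 272 without wild-type replicate 2, and 39, 61, 26 and 112 rose. A direct test of the genotype difference at ZT12 against that at ZT08 called 0 genes by edgeR, 13 by DESeq2, and had 261 higher (1.73%) and 280 lower (1.86%) at an unadjusted p under 0.05. The unequal counts of the 2 hours are therefore not shown to be a difference between them. Among the smallest p-values of this test were Gadd45g and Cux2. Gadd45g, a stress and growth arrest gene, had 19.8 and 11.3 CPM at ZT08 and 10.2 and 10.3 CPM at ZT12 in the knockout, against 1.77 and 2.33 CPM at ZT08 and 31.01 and 13.5 CPM at ZT12 in wild type, higher in the knockout at ZT08 and lower at ZT12 without overlap at either hour (difference of log2 changes −4.04, edgeR adjusted p = 0.484). Myc had 17.5 and 12.2 CPM at ZT08 and 6.33 and 6.31 CPM at ZT12 in the knockout, against 6.18 and 6.16 CPM at ZT08 and 54.1 and 20.5 CPM at ZT12 in wild type, likewise higher in the knockout at ZT08 and lower at ZT12, and not called over both hours (edgeR adjusted p = 0.536).

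**Figure D5:**
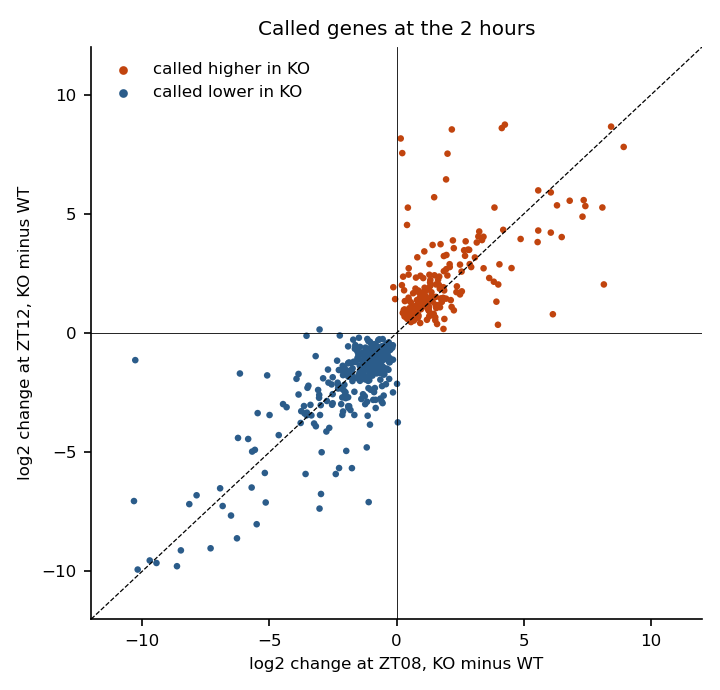
Log2 change of knockout against wild type at ZT08 (x axis) and at ZT12 (y axis) for the 575 genes called over both hours, orange for higher and blue for lower in the knockout, with the line of equal change dashed. For 570 genes the change has the same sign at both hours and for 5 it does not, and 0 genes were called in opposite directions at the 2 hours.

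Against the other 4 sampled times, 2 genes passed a test of the difference in genotype effect (0.0133%), 1 in each direction (0.00663% each), with 678 higher (4.49%) and 772 lower (5.12%) at an unadjusted p under 0.05 and 93 called by DESeq2. Gm2788, a non-coding transcript within 10 Mb of Dbp, averaged 5.01 against 31.4 CPM in knockout and wild type at ZT08 and ZT12 and 21.04 against 28.5 CPM at the other times (difference of log2 changes −2.16, edgeR adjusted p = 0.00693). Adamts7, a metalloproteinase gene, averaged 20.4 against 14.98 CPM at ZT08 and ZT12 and 12.4 against 27.8 CPM at the other times (1.51, edgeR adjusted p = 0.0193), a call lost without any of 6 of the 8 libraries (edgeR adjusted p 0.0611 to 0.16). Without the wild-type set I libraries of ZT04, ZT16 and ZT20 the difference was −2.33 for Gm2788 (edgeR adjusted p = 0.00257) and 1.5 for Adamts7 (edgeR adjusted p = 0.0217). Leaving out the 6 of wild type altogether gave −2.08 for Gm2788 (edgeR adjusted p = 0.000506) and 1.27 for Adamts7, which then did not pass (edgeR adjusted p = 0.0629). Cyp17a1, a steroid hydroxylase gene, had 4.09 and 5.89 CPM at ZT08 and 16.05 and 17.1 CPM at ZT12 in the knockout, against 21.4 and 13.7 CPM at ZT08 and 237 and 74.5 CPM at ZT12 in wild type and 23.9 against 27.3 CPM in knockout and wild type at the other times, a difference that did not pass (edgeR adjusted p = 0.117). The other falls and rises above are therefore not shown to be particular to these hours.

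Genes near the deleted loci were called more often on chromosome 7. Within 10 Mb of Dbp 21 of 144 genes tested fell and 13 rose (23.6%, beside 3.81% of all genes). Within 10 Mb of Tef on chromosome 15 it was 11 falls and 5 rises of 280 (5.71%), and within 10 Mb of Hlf on chromosome 11 it was 4 falls and 0 rises of 213 (1.88%). Among the genes named above, Tead2, Slc6a16, Saa1, Saa3, Abcc6, Ftl1, Nkg7 and Gm2788 lie near Dbp, Rpl3, Ppara, Csnk1e and Ly6c2 near Tef, and Nr1d1 near Hlf. Loss of the factors and a difference carried along with the targeted locus cannot be told apart for these genes. The window of 10 Mb was a choice, and over all of chromosome 7, 112 of 1187 genes tested were called (9.44%). Whether the same limit holds for genes of chromosome 7 farther from Dbp, such as Nlrp12, Hamp, Tmc5, Igsf23 and Synm, was not tested.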

How the data were processed

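Liver RNA was measured by stranded mRNA sequencing (TruSeq Stranded mRNA, per the labels' protocols). The authors deposited raw read counts per gene for 24 libraries, aligned with STAR 2.4.0i to mm10, per the submitters' processing notes. How reads were counted, with which annotation and strand setting, is not given in the sources used here. Symbols and positions came from GENCODE M21 (54495 of 54532 gene IDs matched). 0 sample columns were left unused.

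Counts were tested with edgeR 4.0.16 (limma 3.58.1, R 4.3.3) by the quasi-likelihood test over all 24 libraries with 12 group means, TMM scaling and filterByExpr at a minimum count of 10, which left 15090 genes. The contrast averages knockout minus wild type at ZT08 and ZT12. P-values were Benjamini-Hochberg adjusted over all genes, and calls were made under 0.05. The script was tested on simulated data. CPM are counts over TMM-scaled totals, and an SE is the log2 change divided by the root of F. Alternatives included DESeq2 1.42.0, filters, scaling, replicate blocks and left-out libraries.

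By rule, the named genes were the deleted genes, clock genes, the 10 largest rises and falls that passed, did not overlap within either hour and had a mean log2 CPM of at least 1 (unnamed transcripts and processed copies passed over), 5 genes each way for the differences between hours, and members of the lists. The examples given from the lists were chosen after their values were seen. Members and lists were chosen with earlier results of these data known. Some list members are not reported here by name.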

Additional observations from a re-analysis of the deposited data

Results flagged for a closer look

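Gm2788 (chromosome 7, 48877958 to 48913040), a processed transcript, averaged 5.01 ± 0.478 CPM in the knockout and 31.4 ± 15.5 CPM in wild type (SD, n = 4 each). The genotype difference at ZT08 and ZT12 exceeded that at the other 4 times by the test of that difference itself (−2.16 on the log2 scale, SE 0.26, edgeR adjusted p = 0.00693), with averages of 21.04 against 28.5 CPM in knockout and wild type at the other times. With GC and length offsets it did not pass (edgeR adjusted p = 0.0957). It lies within 10 Mb of Dbp.

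Adamts7 (chromosome 9, 90163069 to 90208071) had 14.3 and 14.3 CPM at ZT08 and 31.5 and 21.6 CPM at ZT12 in the knockout, against 15.6 and 17.1 CPM at ZT08 and 10.1 and 17.2 CPM at ZT12 in wild type. The same test gave 1.51 on the log2 scale (SE 0.21, edgeR adjusted p = 0.0193), with averages of 12.4 against 27.8 CPM in knockout and wild type at the other times, while the difference at ZT08 and ZT12 was not called (log2 change 0.38, edgeR adjusted p = 0.282). The call against other times was lost without any of 6 of the 8 libraries (edgeR adjusted p 0.0611 to 0.16).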

How the results depend on the processing

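All 575 called genes kept their direction in each alternative that measured them. They were also called in 554 cases by DESeq2, 425 with only the 8 libraries of ZT08 and ZT12, 216 in set P and 28 in set I. Over both hours, where 200 rose and 375 fell, no filter gave 456 rises, GC and length offsets 414, set P 119 and 168 falls, and set I 11 and 21. Counts below are rises, then falls. At ZT08 (50 and 91), no filter gave 185 and 231, the offsets 97 and 141, and DESeq2 76 and 138. At ZT12 (105 and 174), no filter gave 256 and 376, the offsets 202 and 307, and DESeq2 270 falls. Between the hours (0), no filter gave 128, the 8 libraries 1 and DESeq2 13. Against other times (2), no filter gave 289, the offsets 11, set P and set I 0 each and DESeq2 93.

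Leaving out wild-type set I libraries, either the 3 of ZT04, ZT16 and ZT20 or all 6, was chosen after seeing the data. Without the 3 of other hours, there were 669 and 914 over both hours, 111 and 214 at ZT08, 309 and 526 at ZT12, 1 between the hours and 4 against other times. Without all 6 wild-type set I libraries, 5 genes passed between the hours.

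Leaving out 1 library gave 119 to 209 rises and 181 to 436 falls over both hours, 15 to 53 and 22 to 86 at ZT08, 26 to 112 and 51 to 272 at ZT12, 0 to 3 between the hours and 1 to 31 against other times. A group left with 1 library was assumed to vary like the others. Of 96 named called genes, 42 lost the call without at least 1 library, and 12 were called in every alternative.

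At each of the 6 times, the difference between the replicates was taken gene by gene within each genotype. These differences correlated between knockout and wild type at 0.0541 to 0.231, not all above 0.1. Knockout and wild-type libraries of the same number share a letter whose meaning is not stated, so they were not taken as pairs. With the replicate block within time, 109 rose and 181 fell over both hours, 23 and 41 at ZT08, 47 and 74 at ZT12, and 1 passed against other times. The replicate block by letter gave 268 falls at ZT12 and 10 against other times. With offsets and that block, 500 and 654 were called, 119 and 173 at ZT08, 275 and 409 at ZT12, 1 between the hours and 21 against other times. Set-only fits gave no single hours, and the 8-library fit no comparison with other times.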

Other observations

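By annotation class, 28 of 361 processed pseudogenes tested were called (7.76%), 19 higher and 9 lower, beside 473 of 13033 protein-coding genes (3.63%), 154 higher and 319 lower. By chromosome, 112 of 1187 genes on chromosome 7 were called (9.44%), 44 higher and 68 lower. On chromosome 19, which holds the Cyp2c genes, 1 gene was higher and 24 were lower of 519 (4.82%).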
